A study of Mus musculus with 23 samples.

Results

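Resting macrophages hold most of their NF-κB outside the nucleus, so few sites on chromatin are bound by its p65 (RelA) subunit before a stimulus. The sites described here are the ones listed for p65 without any stimulus in both genotypes of the study. Of the 702 p65 peaks of untreated wild type macrophages, 284 overlapped a p65 peak of untreated NCoR knockout macrophages by 1 bp or more, which is 40.5% of the wild type list. They matched 284 different knockout peaks out of 2227. The sites were split by the reads of an input library, which is sonicated DNA sequenced without an antibody. At 30 sites the scaled input reads (control tags) reached 1 or more in either untreated list, and these are called high-input sites. The other 254 sites had less than 1 control tag in both lists and are called low-input sites.

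NF-κB dimers that contain p65 are held in the cytoplasm by IκB proteins until a receptor such as TLR4 triggers IκB breakdown, after which p65 enters the nucleus and binds enhancers and promoters of inflammatory genes. NCoR is a corepressor that carries histone deacetylase activity to genes through nuclear receptors and other factors. LXRβ, a nuclear receptor for oxysterols, controls genes of cholesterol efflux and fatty acid synthesis and can repress inflammatory genes. In ChIP-seq, repeats that the genome assembly holds in fewer copies than the cells do gather reads in the antibody library and in the input alike.

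All p65 libraries came from peritoneal macrophages elicited with thioglycollate in male C57Bl/6 mice aged 6 to 8 weeks, and both genotypes carried floxed NCoR alleles. The wild type strain is labelled NCoR fl/fl Lys M-Cre -/-, the knockout strain NCoR fl/fl Lys M-Cre +/-. The LysM promoter drives Cre in myeloid cells, and how much NCoR was left was not analysed here. Each genotype was untreated or given 100 ng/ml Kdo2-Lipid A (KLA), a TLR4 agonist, for 1 h. The LXRβ list is from another system, RAW264.7, a mouse macrophage line, here stably expressing LXRβ with a tag that the BirA enzyme biotinylates and treated for 2 h with the LXR agonist GW3965 at 1 µM. The series has 23 samples, and 5 libraries, 1 for each group, were analysed. Differences between groups therefore stand without replicates and without a test, and sites were not used as replicates. Sites are given by position in the mm9 build. Gene names, annotation and sequences of that build were not used here.

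The height of a site is the authors' number of tags (aligned reads) per 10000000 tags of the library. The untreated libraries were shallow, with 777228 tags in wild type and 786121 in knockout, so that 1 tag stood for a height of 12.9 or 12.7 and a listed peak needed 5 tags. The KLA libraries held 2120392 (wild type) and 1673506 (knockout) tags, and 1 tag stood for 4.72 or 5.98. The LXRβ library held 11758634 tags. The KLA lists had 30021 and 22585 peaks and the LXRβ list 2743. Tags inside listed peaks made up 0.83% and 2.37% of the untreated libraries and 17.57% and 17.66% of the KLA libraries. A site absent from a list may still hold tags below that list's threshold.

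Presence in both untreated lists and the control tags chose the sites, so the untreated heights and the input are given as a description. Among the 254 low-input sites the wild type height ran from 64.3, the lowest in that list, through a median of 83.65 to 437.5. Knockout heights at these sites ran from 63.6 through 101.8 to 966.8. In tags these medians are 6.5 and 8, and the tallest sites held 34 and 76. Most low-input sites were thus near the lower limit of both lists, with a small tall group above them. The 30 high-input sites were taller, at 102.9 to 1248 in wild type with a median of 340.95, and 114.5 to 1183 in knockout with a median of 318.

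The knockout height was above the wild type height at 159 of 254 low-input sites, with a median ratio of 1.31 and an interquartile range of 0.988 to 1.98. It was 2-fold or more higher at 59 sites and 2-fold or more lower at 5. High-input sites leaned the other way, with the knockout lower at 22 of 30 and a median ratio of 0.848. With high-input sites within 10 kb of each other counted once, 11 were left and their median was 1.01. Peaks were 103 bp wide in the wild type list and 126 bp in the knockout list. Counted per bp of peak width, the median at low-input sites was 1.07 and at high-input sites 0.693. The untreated heights of the 2 genotypes correlated across low-input sites with a Pearson r of 0.580 on the log2 scale and a Spearman rho of 0.452 (n = 254 sites, from 1 library a genotype).

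**Figure D1:**
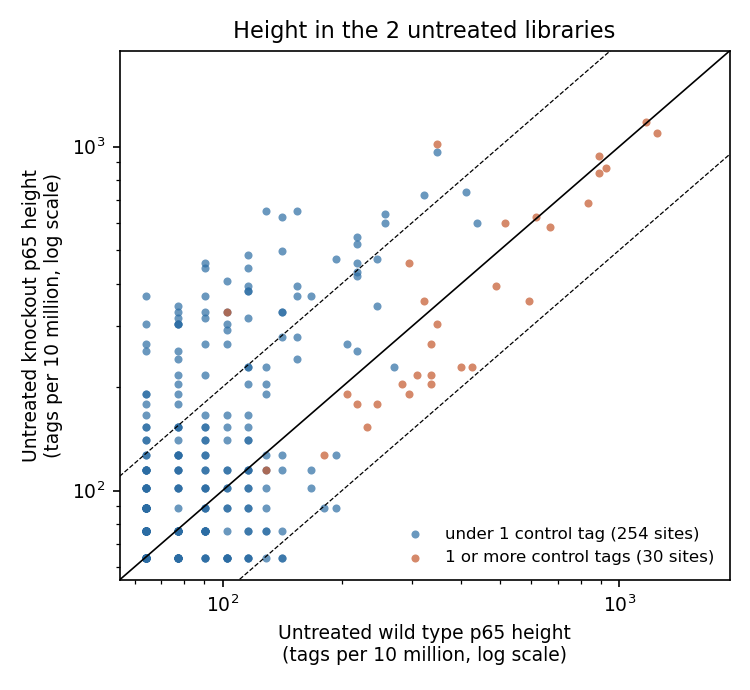
Height of the 284 shared sites in untreated wild type (x axis) and untreated knockout macrophages (y axis), both in tags per 10000000 on log scales, with the line of equality and dashed lines at 2-fold. Low-input sites (blue) crowd near the lower limit of both lists, and 59 lie above the upper dashed line, while high-input sites (orange) lie mostly on or below equality.

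At the edge of the overlap rule, 7 members overlapped by under 20 bp and 37 had centres 50 bp or more apart, and 251 of the 284 remained with a reciprocal overlap of 50%. The 3 smallest overlaps among the members were 4, 5 and 7 bp, and the 3 nearest wild type peaks without an overlap had a knockout centre 121, 128 and 129 bp away. Centres of the paired peaks were a median of 15 bp apart. At the control-tag limit, the members just inside were chr9:110183775-110183877 with 1.0 in both lists, chr17:39984955-39985057 with 0.4 in wild type and 1.1 in knockout, and chr9:3000604-3000706 with 1.6 in both. Just outside were chr2:24281256-24281358 with 0.5 and 0.6, and chr7:146317573-146317675 and chr1:182191285-182191387 with 0.3 and 0.5 each. The gap between the groups was small at this edge, but the medians were far apart, at 0.1 control tags in both lists for low-input sites and 3.0 (wild type) and 3.35 (knockout) for high-input sites.

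High-input sites sat in a few places. Chromosome 9 held 20 of the 30 and chromosome 2 held 4, and chromosomes 4, 6, 11, 12, 17 and X held 1 each. One window of 100 kb, chr9:3000001-3100000, held 17 of them within 36323 bp, at chr9:3000069-3036391. The 4 on chromosome 2 lay within 4890 bp, at chr2:98502454-98507343. Low-input sites were spread over the genome, with 32 on chromosome 11 (12.6%) and 24 on chromosome 2 (9.45%) as the most. Over all 284 sites, 243 of the 251 windows of 100 kb that held a site held 1 only.

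The tallest high-input sites show one profile across the 4 p65 libraries. The site chr2:98507241-98507343 had a height of 1248 in untreated wild type, 1094 in untreated knockout, 523.5 in wild type KLA and 681.2 in knockout KLA. The site chr9:35112989-35113091 had 1170.8, 1183, 499.9 and 675.2 in the same order, with 5.6 control tags in the wild type list and 6.3 in the knockout list. Both untreated values were the highest at each site, wild type KLA was the lowest and knockout KLA lay between.

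The same order held at the next sites. The site chr2:98502882-98502984 had 887.8 and 941.3 untreated and 433.9 and 561.7 after KLA (wild type first, then knockout). The site chr9:3035797-3035899 had 926.4 and 865.0 untreated and 424.4 and 507.9 after KLA. The site chr9:3025449-3025551 had 887.8 and 839.6 untreated and 438.6 and 507.9 after KLA. Of the 3 others among the 8 tallest, chr2:98502454-98502556 had 836.3 and 686.9 untreated and 344.3 and 466.1 after KLA. At each of these sites the exact Poisson intervals of the untreated and KLA tags in wild type did not overlap, for example 1012.1 to 1522.5 against 431 to 630 at chr2:98507241-98507343. Such intervals cover counting error only, and the choice of these sites by untreated height favours a gap.

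In the KLA lists, 28 of 30 high-input sites were listed for wild type (93.3%, exact Clopper-Pearson 95% interval 77.9 to 99.2) and 20 for knockout (66.7%, 47.2 to 82.7). Peaks of wild type KLA were called with no input, whereas those of knockout KLA had to reach 4-fold over one, so these 2 shares do not compare the genotypes. The 20 sites in both lists are the same as the 20 in the knockout list. Control tags at those 20 ran from 2.1 to 16.8 in the knockout KLA list, with a median of 7.3. The 2 sites in neither KLA list were chr17:39984955-39985057, at 295.9 in untreated wild type and 457.9 in untreated knockout, and chr9:3027105-3027207, at 218.7 and 178.1.

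Every high-input site listed after KLA was lower than untreated on this per-library scale. The wild type KLA height was 0.321 to 0.559 of the untreated height at the 28 sites, with a median of 0.423. In knockout the ratio was 0.181 to 0.992 at 20 sites, with a median of 0.651. The wild type ratios thus spanned less than 2-fold. In wild type 24 of 28 sites were 2-fold or more lower, and in knockout 2 of 20. The 20 knockout sites had to reach 4-fold over input after KLA and the 28 wild type sites did not. These ratios therefore do not compare the genotypes. After KLA the knockout was higher than wild type at 19 of 20, with a median ratio of 1.27, and the same filter favours tall knockout KLA peaks. A height is a share of the library's tags. With tags outside peaks as the base, chosen after seeing the data, the wild type median was 0.509.

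Clustered high-input sites also differed from low-input sites in their surroundings. Fold over local is the authors' ratio of tag density in the peak to that in the surrounding 10000 bp. Its wild type untreated median was 12.6 at high-input sites and 96.1 at low-input sites. The low median came from the dense windows. High-input sites alone in their 100 kb window had folds of 6.58, 66.11, 76.3, 128.12, 208.19, 248.7, 356.9, 400.36 and 518.87. In the chr2:98500001-98600000 window the fold ran from 5.72 to 12.3. In the chr9:3000001-3100000 window it ran from 5.24 to 44.07 with a median of 10.2. Wild type heights in that window were 128.7 to 926.4 untreated and 61.3 to 438.6 after KLA, knockout heights 114.5 to 865.0 and 113.5 to 507.9. Of the 17 sites, 16 were listed in wild type KLA, 10 in knockout KLA and 0 in LXRβ.

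Of the 254 low-input sites, 195 were listed in wild type KLA (76.8%, interval 71.1 to 81.8) against 75.8% of all 702 untreated wild type peaks, a share close to that background, which includes the sites themselves. The knockout KLA list held 200 of them (78.7%, 73.2 to 83.6) against 70.7% of all untreated wild type peaks. Peaks listed untreated in wild type only were found in wild type KLA at 309 of 418 (73.9%, 69.4 to 78.1) and in knockout KLA at 276 (66.0%, 61.3 to 70.6). Peaks listed untreated in knockout only were found at 42.2% (40.0 to 44.4) and 36.1% (33.9 to 38.3) of 1943. The low-input interval for knockout KLA lies above the interval of wild type only peaks, while for wild type KLA the 2 intervals overlap. Knockout supplied 1 of the lists that chose the sites, so its KLA share is not independent of the rule.

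Low-input sites were also taller than the wild type only peaks, and the share depended on height. Among sites with 5 or 6 wild type tags, 90 of 127 low-input sites (70.9%) and 234 of 321 low-input wild type only peaks (72.9%) were in wild type KLA. With 7 to 9 tags these were 64 of 78 (82.1%) and 56 of 64 (87.5%), and with 10 or more 41 of 49 (83.7%) and 12 of 18 (66.7%). For knockout KLA the shares were 69.3% and 63.6% at 5 or 6 tags, 87.2% and 87.5% at 7 to 9, and 89.8% and 77.8% at 10 or more. At matched height neither kind of peak was thus ahead throughout for wild type KLA.

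**Figure D2:**
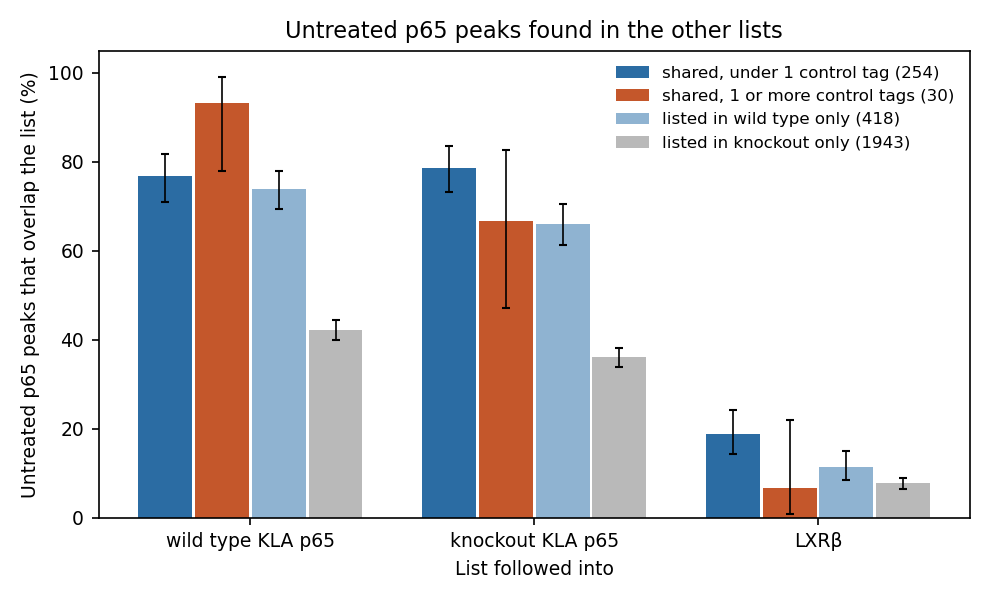
Share of untreated p65 peaks (y axis, percent) that overlap a peak of the wild type KLA, knockout KLA or LXRβ list, for the 2 groups of shared sites and for peaks listed untreated in 1 genotype only, with exact 95% binomial intervals as bars. Low-input shared sites stand at 76.8%, 78.7% and 18.9% and the knockout only peaks at 42.2%, 36.1% and 7.72%.

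Low-input sites in both KLA lists numbered 177 of 254, and 36 were in neither. Of all 702 untreated wild type peaks, 75.8% were in wild type KLA and 70.7% in knockout KLA. Their share in both lists is not given here, so the 177 are not read as agreement between genotypes. Of the low-input sites, 18 were in wild type KLA only and 23 in knockout KLA only. At the 23 sites of the second kind the untreated knockout height was already a median of 2.40 times the wild type height. Wild type KLA heights at the 195 listed sites ran from 18.9 through a median of 103.8 to 650.8, and knockout KLA heights at 200 sites from 29.9 through 101.6 to 627.4.

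The medians hide a wide spread of KLA to untreated ratios. In wild type the ratio ran from 0.151 to 10.1 with a median of 1.16, and in knockout from 0.0672 to 8.22 with a median of 1.03. The wild type median was 0.906 per bp of peak width. At the 99 low-input sites with 7 or more tags in both untreated lists the medians were 0.570 in wild type and 0.342 in knockout. These sites were picked on the denominator of the ratio, and 14 of the 75 in both KLA lists were still 2-fold or more higher in both genotypes. Of the 195 low-input sites listed in wild type KLA, 61 were 2-fold or more higher than untreated (31.3%) and 54 were 2-fold or more lower (27.7%). Over all 532 untreated wild type peaks listed after KLA these shares were 32.1% and 21.4%. In knockout, 56 of 200 were 2-fold or more higher (28.0%) and 72 were lower (36.0%), against 16.7% and 17.1% of all 922 untreated knockout peaks listed after KLA. In wild type the low-input sites were close to the background on the higher side. Both knockout shares were above it, and the untreated heights in these ratios also chose the sites.

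Low-input sites that passed 2-fold in both genotypes did so in the same direction. Of the 177 sites in both KLA lists, 45 were 2-fold or more higher after KLA in both genotypes, 37 were 2-fold or more lower in both, and 0 went 2-fold in opposite directions. Another 15 were higher in wild type only and 11 in knockout only. On the lower side, 5 passed 2-fold in wild type only and 15 in knockout only, and 49 stayed within 2-fold in both. The log2 ratios of the 2 genotypes, which share no library, correlated with a Pearson r of 0.896 and a Spearman rho of 0.902 across these 177 sites. The log2 KLA heights alone correlated between genotypes with an r of 0.913 and a rho of 0.917. For the untreated heights, which took part in choosing the sites, these were 0.632 and 0.492. The ratios thus correlated no more closely than the KLA heights did. The 45 and the 37 are called KLA-higher and KLA-lower sites below. They were grouped by the KLA to untreated ratio in both genotypes, so all 4 p65 heights took part in the grouping. Low untreated and high KLA heights favour the first group and the reverse the second. The heights and height ratios of these groups are given as a description. The remaining 95 are called intermediate.

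**Figure D3:**
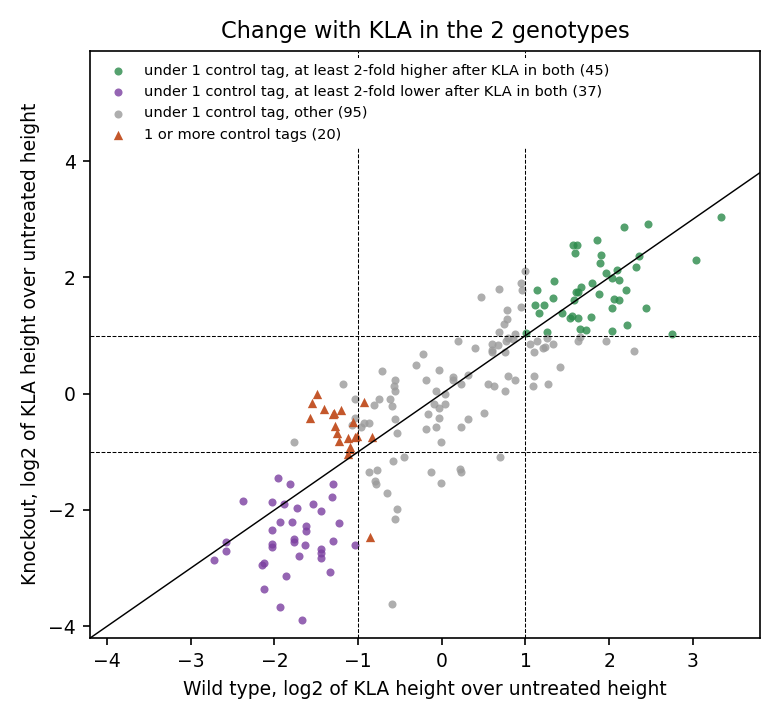
The log2 ratio of KLA to untreated height in wild type (x axis) against knockout (y axis) for shared sites listed in both KLA lists, with the line of equality and dashed lines at 2-fold. The 45 KLA-higher (green) and 37 KLA-lower (purple) low-input sites lie in opposite corners along 1 diagonal, and the 20 high-input sites (orange triangles) cluster below 0 in both genotypes, mostly above the line of equality.

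Untreated heights at KLA-higher sites, which the grouping favours when low, covered a narrow range. Their untreated heights ran from 64.3 to 167.3 in wild type (median 90.1) and from 63.6 to 152.6 in knockout (median 76.3). After KLA they ran from 174.5 to 650.8 in wild type (median 311.3) and from 137.4 to 627.4 in knockout (median 322.7). No KLA-higher site had a KLA height below the highest untreated height of the group in wild type. The genotypes were alike in level, with a median knockout to wild type ratio of 0.988 untreated and 0.962 after KLA.

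The site with the highest wild type ratio was chr17:18037892-18037994, with a height of 64.3 in untreated wild type, 76.3 in untreated knockout, 650.8 in wild type KLA and 627.4 in knockout KLA. It rested on 5 tags untreated in wild type (Poisson interval of the height 20.9 to 150) and 138 after KLA (547 to 769). The site chr3:135354389-135354491 had 64.3, 89.0, 528.2 and 436.2 in the same order. At both sites the untreated and KLA intervals did not overlap in either genotype. In wild type the choice of these sites by their ratio favours such a gap, so it is a description.

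The next 3 sites by wild type ratio were also taller after KLA in both genotypes. The site chr6:134139982-134140084 had 64.3 and 63.6 untreated and 353.7 and 484.0 after KLA (wild type, then knockout). The site chr10:98544364-98544466 had 77.2 and 127.2 untreated and 419.7 and 352.6 after KLA. The site chr11:117853130-117853232 had 64.3 and 76.3 untreated and 433.9 and 155.4 after KLA. At this last site the knockout KLA height was 0.358 of the wild type KLA height, and the Poisson intervals, 101 to 228 against 350 to 532, did not overlap. The wild type and knockout KLA centres there lay 71 and 107 bp from the untreated wild type centre, so the peaks may differ in position. The choice by a high wild type ratio also favours a tall wild type KLA peak.

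At KLA-lower sites, where the grouping favours tall untreated peaks, the untreated heights were wider and higher in knockout than in wild type. Their untreated heights ran from 64.3 to 437.5 in wild type (median 141.5) and from 114.5 to 966.8 in knockout (median 394.3). After KLA they ran from 23.6 to 141.5 in wild type (median 37.7) and from 29.9 to 197.2 in knockout (median 65.7). The median KLA site held 8 tags in wild type and 11 in knockout, against 66 and 54 at KLA-higher sites. Of the 12 tallest low-input sites by the lower of both untreated heights, 10 were KLA-lower, and the 2 others lay on chromosome 11 near 102 Mb.

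The tallest was chr5:114623090-114623192, with a height of 437.5 in untreated wild type, 597.9 in untreated knockout, 117.9 in wild type KLA and 161.3 in knockout KLA. Its Poisson intervals were 303 to 611 untreated and 76.3 to 174 after KLA in wild type. The site chr1:12634838-12634940 had 411.7, 737.8, 141.5 and 197.2 in the same order. The site chr11:25000115-25000217 had 347.4, 966.8, 84.9 and 155.4. Knockout was above wild type in both conditions at all 3 of these sites.

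Others of the 12 had the same form. The site chr2:16604694-16604796 had 321.7 and 725.1 untreated and 103.8 and 119.5 after KLA (wild type, then knockout), with an LXRβ peak of 11.8. The site chr14:104736158-104736260 had 257.3 and 636.0 untreated and 103.8 and 185.2 after KLA. The site chr9:70653960-70654062 had 257.3 and 597.9 untreated and 75.5 and 101.6 after KLA. In each the untreated knockout was the highest of the 4 values and wild type KLA the lowest. The same order held at chr6:131327532-131327634, chr2:125973599-125973701, chr5:131995576-131995678 and chr2:25407573-25407675, the last with 244.5 and 343.5 untreated and 47.2 and 95.6 after KLA.

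The lowest wild type ratio was that of chrX:119944978-119945080, at 218.7 and 521.5 untreated and 33.0 and 71.7 after KLA (wild type, then knockout). The site chr3:152786724-152786826 had 141.5 and 623.3 untreated and 23.6 and 95.6 after KLA, with an LXRβ peak of 15.5. The site chr9:122557167-122557269 had 141.5 and 279.9 untreated and 23.6 and 47.8 after KLA. At chr6:125568015-125568117 heights were 115.8 and 381.6 untreated and 23.6 in wild type KLA, and the site was not in the knockout KLA list. Wild type KLA values of 23.6 rest on 5 tags, close to the lowest height of that list, 18.9.

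**Figure D4:**
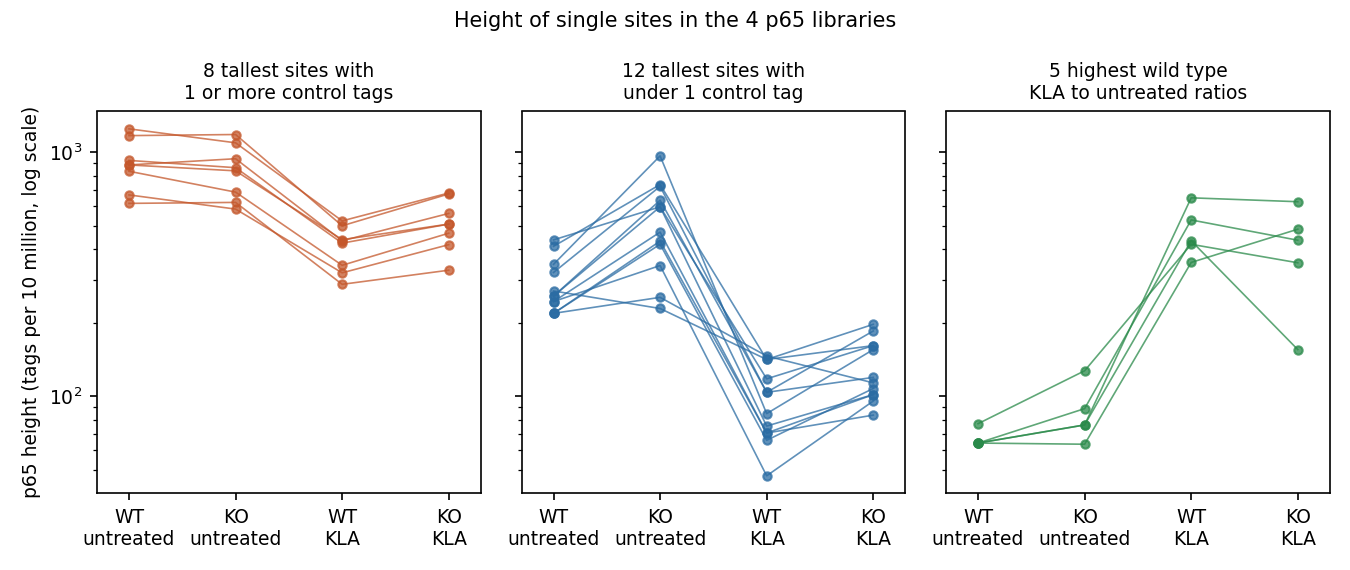
Height (y axis, tags per 10000000, log scale) of single sites in the 4 p65 libraries (x axis), each line a site, for the 8 tallest high-input sites, the 12 tallest low-input sites and the 5 low-input sites with the highest wild type KLA to untreated ratio. The tall low-input sites are highest in untreated knockout except at chr11:102063905-102064007, where untreated wild type (270.2) is above untreated knockout (229.0).

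The genotype ratios of these groups are built from the heights that grouped them and are a description only. At KLA-lower sites the untreated knockout to wild type ratio had a median of 2.39, was above 1 at 36 of 37 sites and was 2 or more at 24. After KLA the knockout was again above wild type at 36 of 37, with a median of 1.48. The lowest listed height was 18.9 in wild type KLA and 29.9 in knockout KLA. Any site in both lists with a wild type KLA height below 29.9 thus had a ratio above 1. Wild type KLA heights at KLA-lower sites reached down to 23.6, so part of this count was fixed by the lists. Intermediate sites had medians of 0.989 untreated and 0.959 after KLA. Knockout was therefore higher than wild type at the KLA-lower sites in both pairs of libraries, while the other groups had medians near 1 in both.

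Peak shape differed too. The focus ratio is the fraction of a peak's tags that lie on the side of its centre predicted by their strand, as the authors gave it. It had a median of 0.952 at KLA-lower sites in untreated knockout, against 0.778 at KLA-higher and 0.833 at intermediate sites. The median site of these groups held 31, 6 and 7 tags in that library, whose heights took part in the grouping. How far the number of tags sets the focus ratio was not tested, so this untreated contrast is a description. After KLA the wild type medians were 0.875, 0.779 and 0.780. The fold over local signal in untreated knockout had a median of 784 at KLA-lower, 54.9 at KLA-higher and 57.0 at intermediate sites. In wild type KLA these folds were 46.0, 49.6 and 30.2. The focus ratio was therefore highest at KLA-lower sites in both of these libraries. The fold over local contains the peak's own height, which took part in the grouping. It was far higher at KLA-lower sites in untreated knockout, and in wild type KLA it was close to that of KLA-higher sites.

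Positions differed as well. The wild type KLA peak was centred a median of 4 bp from the untreated wild type centre at KLA-lower sites, 26 bp at KLA-higher and 28 bp at intermediate sites, and the knockout KLA peak 3, 26 and 28 bp. Untreated wild type and knockout centres were a median of 4 bp apart at KLA-lower and 26 bp at KLA-higher sites. The part of untreated height in this difference was not tested. After KLA the KLA-lower sites had the fewest tags of the 3 groups. Untreated, where the grouping favours tall peaks, they had the most, with medians of 11 tags in wild type and 31 in knockout. Sites of the groups lay on 15 (KLA-lower) and 16 (KLA-higher) chromosomes.

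The sites were also grouped by the untreated genotype ratio, whose knockout height is the denominator of the knockout KLA to untreated ratio. At the 59 low-input sites with an untreated knockout to wild type ratio of 2 or more, 36 were in wild type KLA and 43 in knockout KLA. Of the 31 in both, 24 were KLA-lower and 0 KLA-higher, a split that the choice by a high untreated knockout height favours. Their knockout to wild type ratio after KLA was above 1 at 26 of 31, with a median of 1.27. The lowest listed KLA height, 29.9 in knockout against 18.9 in wild type, favours ratios above 1 at low sites. At the 190 sites with untreated ratios between 0.5 and 2, 141 were in both KLA lists, 45 were KLA-higher and 13 KLA-lower, and the median after KLA was 0.996. All 5 sites at 0.5 or less were in both KLA lists, with a median of 0.874.

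Across the 177 low-input sites in both KLA lists the log2 knockout to wild type ratio untreated correlated with the one after KLA, which shares no library with it, with a Pearson r of 0.410 and a Spearman rho of 0.368. The unequal lowest heights of the KLA lists enter the ratio after KLA, and their part in the correlation was not tested. Of the 177 sites, 11 were 2-fold or more higher in knockout after KLA (6.21%) and 2 were 2-fold or more lower (1.13%). Over all 16203 sites shared by the KLA lists the shares were 6.28% and 2.43%, and the median ratio was 1.09 against 1.06 at the low-input sites. As a whole, the low-input sites were therefore near the background in their genotype ratio after KLA. The peak width was 132 bp in wild type KLA and 144 bp in knockout KLA, and per bp their median was 0.968.

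**Figure D5:**
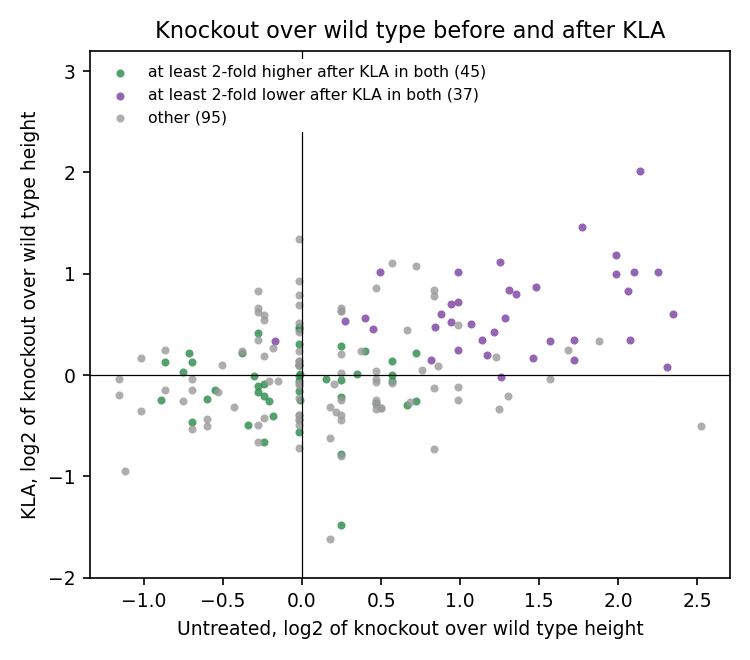
The log2 knockout to wild type height ratio untreated (x axis) against that after KLA (y axis) at the 177 low-input sites in both KLA lists. KLA-lower sites (purple) lie to the upper right, with 36 of 37 above 0 on each axis, and KLA-higher sites (green) lie around 0 on both.

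The 36 low-input sites in neither KLA list were low in wild type and less so in knockout. Their median untreated height was 64.3 in wild type, where 20 of 36 held 5 tags, and 133.55 in knockout, which was higher at 27 of 36. Their median focus ratio in untreated knockout was 0.905. The tallest was chr18:65587105-65587207, with 141.5 in untreated wild type and 496.1 in untreated knockout, and the nearest KLA centres were 2974 bp (wild type) and 2988 bp (knockout) away. The site chr5:53046353-53046455 had 141.5 and 330.7, with the nearest KLA centres 131569 and 139403 bp away. The site chr12:36862678-36862780 had 128.7 and 229.0, and chr9:46502492-46502594 had 128.7 and 127.2.

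Few of these sites had a KLA peak close by. A KLA centre of either genotype lay within 500 bp of 2 of the 36 sites and within 5000 bp of 12, and 15 were farther than 100000 bp from both. One of the 2 was chr11:102068242-102068344, at 128.7 and 203.5 untreated, with KLA centres 146 and 154 bp away. The untreated knockout height of 496.1 at the chromosome 18 site rested on 39 tags (Poisson interval 353 to 678), and the lowest listed knockout KLA height was 29.9. At the 20 sites of 5 wild type tags the wild type interval of a height is 20.9 to 150, which reaches almost down to the lowest listed wild type KLA height of 18.9.

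Low-input sites formed 1 cluster. The window chr11:102000001-102100000 held 10 of them within 21972 bp, at chr11:102057849-102079820, with 0 high-input sites and at most 0.2 control tags. Their heights were 102.9 to 270.2 in untreated wild type and 114.5 to 330.7 in untreated knockout. After KLA, 8 were listed in wild type at 33.0 to 146.2 and 9 in knockout at 41.8 to 167.3. The cluster was lower after KLA, with median ratios of 0.607 in wild type and 0.397 in knockout, and 0 of its sites overlapped an LXRβ peak.

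In fold over local the cluster resembled the dense high-input window chr9:3000001-3100000, but with low input. Its median fold over local was 9.465 in untreated wild type, close to the 10.2 of the chr9:3000001-3100000 window and below the 96.1 of low-input sites in all. Its tallest members in untreated wild type were chr11:102063905-102064007 and chr11:102066162-102066264. The first had 270.2 and 229.0 untreated and 141.5 and 161.3 after KLA (wild type, then knockout). The second had 218.7 and 254.4 untreated and 146.2 and 113.5 after KLA. In untreated knockout the tallest were chr11:102057849-102057951 and chr11:102058371-102058473, at 330.7 each, against 141.5 and 102.9 in untreated wild type. Across the cluster the untreated knockout to wild type ratio had a median of 1.46. The last site of the cluster, chr11:102079718-102079820, stood apart with a fold over local of 108.1.

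LXRβ peaks overlapped 48 of 254 low-input sites (18.9%, interval 14.3 to 24.3) and 2 of 30 high-input sites (6.67%, 0.818 to 22.1), against 14.0% of all 702 untreated wild type peaks. Wild type only peaks had 48 of 418 (11.5%, 8.59 to 14.9) and knockout only peaks 150 of 1943 (7.72%, 6.57 to 9). The intervals of low-input sites and wild type only peaks overlap slightly, and those of low-input sites and knockout only peaks do not. At 5 or 6 wild type tags the shares were 18.1% of low-input sites and 11.2% of low-input wild type only peaks, at 7 to 9 tags 19.2% and 12.5%, and at 10 or more 20.4% and 16.7%. The 50 shared sites are 1.82% of the LXRβ list.

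Of the 48 low-input sites with LXRβ, 39 were in both KLA lists, 5 in knockout KLA only, 0 in wild type KLA only and 4 in neither. In wild type KLA this is 81.3%, close to the 76.8% of all 254 low-input sites. In knockout KLA it is 91.7%, against 78.7% of all low-input sites. The difference was thus larger in the knockout KLA list, and neither was tested. The median wild type KLA height was 174.5 at sites with an LXRβ peak and 82.55 at sites without, and for knockout KLA 131.45 and 101.6. LXRβ overlapped 14 of 45 KLA-higher sites (31.1%), 21 of 95 intermediate (22.1%), 4 of 37 KLA-lower (10.8%) and 4 of 36 in neither list (11.1%). Untreated, the median height with and without LXRβ was 90.1 and 77.2 in wild type, and 89.0 and 114.5 in knockout. Sites with LXRβ were thus taller after KLA in both genotypes, but untreated the order differed between the genotypes.

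Most LXRβ peaks at these sites were weak. Their heights ran from 8.2, the lowest of the LXRβ list, to 146.5, and 42 of 48 were below 20. The median of 10.9 equals that of the whole LXRβ list. The LXRβ and untreated wild type centres were a median of 26.5 bp apart.

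The tallest LXRβ peak at a low-input site was at chrX:103382237-103382339, with an LXRβ height of 146.5 and p65 heights of 77.2 and 127.2 untreated and 42.4 and 89.6 after KLA (wild type, then knockout). The site chr6:3151448-3151550 had an LXRβ height of 52.8 and p65 heights of 90.1 and 76.3 untreated, was not in wild type KLA and had 35.9 in knockout KLA. The site chr10:21308449-21308551 had 25.5 for LXRβ, 77.2 and 305.3 for untreated p65, no wild type KLA peak and 29.9 in knockout KLA. None of the 3 had a taller p65 peak after KLA than untreated.

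Other sites among the 10 with the highest LXRβ peaks did. The site chr5:53900909-53901011 had 20 for LXRβ and p65 heights of 102.9 and 89.0 untreated and 419.7 and 352.6 after KLA. The site chr3:131361217-131361319 had 16.4 for LXRβ and p65 heights of 141.5 and 114.5 untreated and 330.1 and 328.7 after KLA. The site chr12:3872945-3873047 had 20 for LXRβ, 141.5 and 127.2 untreated and 254.7 and 245.0 after KLA. At these 3 the genotypes were close in both conditions.

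The site chr6:125826997-125827099, in turn, had 21.8 for LXRβ and p65 heights of 154.4 and 648.8 untreated and 61.3 and 77.7 after KLA. The 2 high-input sites with LXRβ were chr11:108873117-108873219 and chr9:110183775-110183877. The first had an LXRβ height of 107.4, untreated p65 heights of 347.4 and 1017.7, 127.3 in wild type KLA and no knockout KLA peak. The second had 28.2 for LXRβ, 102.9 and 330.7 untreated and 56.6 and 59.8 after KLA. Untreated knockout was 2-fold or more above untreated wild type at these 2 high-input sites and at none of the 28 others.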

How the data were processed

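The data were 5 ChIP-seq peak lists, 1 library each. The submitters' processing notes name Bowtie 0.12.7, HOMER and the mm9 build. Per the file headers, peaks were called in each library at an FDR of 0.001, 4-fold over the surrounding 10000 bp and, except for wild type KLA, 4-fold over input, with at most 1 tag per bp. The genome size setting was 2000000000 for wild type KLA and LXRβ and 4000000000 for the others, per the file headers.

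Heights are the normalized tag counts deposited by the authors, a signal in tags per 10000000. The deposited score was taken as tags, except in wild type KLA, where it differed from the tags behind the signal at 13561 peaks. LXRβ heights were 0.91 per score unit, against 0.850 from the header's total, so they rest on another total. The focus ratio is a fraction and the fold over local a ratio, both deposited by the authors. No p-value deposited with the peaks was used.

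Sites were matched with pandas 2.3.3 and numpy 2.4.6 under Python 3.11.15, and intervals computed with scipy 1.17.1. A match was an overlap of 1 bp or more, with the nearest centre taken, and sites were followed from the wild type peak. The matching was checked on simulated lists and against bedtools 2.31.1. Intervals of shares are exact Clopper-Pearson at 95% and those of heights exact Poisson intervals of the tags. Both cover counting error only. The members, the groups of sites and the naming rules were chosen with earlier results of these data known. Sites were named by height (8 tallest high-input, 12 tallest low-input, 5 tallest in neither KLA list, 10 tallest LXRβ), by the 5 highest and 5 lowest wild type KLA ratios, and at the control-tag limit, and windows by their number of sites. Not every site so chosen is printed. The alternatives tried are given with the limits. Gene lists and motif searches were not run, since no annotation or genome of mm9 was used here.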

Additional observations from a re-analysis of the deposited data

How the results depend on the processing

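Each group was 1 library, so no library could be left out and no paired analysis was possible because a group of 1 has no replicates to pair. Of 173 recomputed values, 152 were counted as unchanged. For shares and medians this meant within the counting interval or spread, for numbers of sites within a set fold. Some of these values could not move. Keeping chromosomes 1 to 19 and X only left all 284 sites, and asking for 7 or more tags left all 30 high-input sites. With 7 or more tags in both untreated lists there were 129 sites, 99 of them low-input, and for these the share in knockout KLA was 86.9% and the median ratios were 1.58 (knockout to wild type, untreated), 0.570 and 0.342 (KLA to untreated, wild type and knockout) and 1.16 (knockout to wild type, KLA), so the median KLA to untreated ratio of low-input sites turned below 1 in both genotypes. A reciprocal overlap of 50%, asked for both in choosing the sites and in matching them to the KLA lists, gave 66.2% in wild type KLA and 68.0% in knockout KLA. The 2 changes were not computed apart. Per bp of peak width, low-input medians were 1.07 (genotypes, untreated), 0.906 (KLA to untreated, wild type) and 0.968 (genotypes, KLA), and high-input medians 0.693, 0.330 (wild type), 0.569 (knockout) and 1.16. Scaling to tags outside peaks, added after seeing the data, gave 1.22 for KLA to untreated in knockout at low-input sites and 0.509 in wild type at high-input sites. Merging sites within 10 kb left 11 high-input sites, whose untreated genotype ratio turned to 1.01 and whose knockout KLA ratio was 0.579. The causes were not tested. KLA-higher and KLA-lower sites numbered 45 and 37 as reported, 32 and 43 per bp, 65 and 35 with the scaling to tags outside peaks, and 14 and 33 at 7 or more tags, with 0 in opposite directions in each.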

Other observations

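Near misses of the overlap rule were counted apart. There were 18 untreated wild type peaks without an overlap whose nearest knockout centre lay within 500 bp, at 121 to 467 bp with a median of 231.5 bp. One of them had 1 or more control tags. Their median wild type height was 70.75 and the tallest was 669.0. In the KLA lists, 10 of the 18 overlapped a wild type peak and 13 a knockout peak, and 5 overlapped an LXRβ peak. Over all 702 untreated wild type peaks the shares were 75.8%, 70.7% and 14.0% in the same order. No difference from these was tested.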
